A study of Mus musculus with 6 samples.

Results

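The 10 keratin genes Krt5, Krt7, Krt8, Krt14, Krt15, Krt17, Krt18, Krt19, Krt20 and Krt23 were described in kidneys in which the transferrin receptor TfR1 was deleted from part of the nephron. They were taken from the count tables by gene symbol, and all 10 were found among the 24422 genes listed. Whole kidneys of C57BL/6 mice were collected at postnatal day 60, and poly-A RNA of 3 control (wild type) and 3 TfR1KO;KspCre kidneys was sequenced. The second group carries a floxed TfR1 gene and a Cre recombinase driven by the Ksp-cadherin promoter, which is active in the distal nephron and not in the whole kidney. Mice of both groups ate a diet with 220 ppm iron. The 3 libraries labelled TfR1KO;KspCre are called knockouts 1 to 3, and the comparison asks which transcripts differed after the deletion.

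Keratins are intermediate filament proteins of epithelial cells. A type I keratin pairs with a type II keratin, and the filaments are anchored at desmosomes between cells and at hemidesmosomes on the basement membrane. Krt8 and Krt18 are the pair typical of simple, single-layered epithelia such as kidney tubules, and Krt7 and Krt19 mark ducts, collecting ducts and urothelium. Krt5 and Krt14, together with Krt15, belong to the basal cells of stratified epithelia, and the urothelium that lines the renal pelvis has basal cells with Krt5. Krt8, Krt18, Krt19 and Krt20 are used as signs of epithelial stress in injured kidney.

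Total counts per library ranged from 11501053 in knockout 3 to 21001341 in control 1. The mRNA of the targeted gene, Tfrc, was not called different between the groups, at 138.5, 167.9 and 62.0 CPM (counts per 1e6 counts, scaled by TMM) in the 3 controls in order and 214.4, 86.0 and 40.6 CPM in the knockouts. Its log2 fold change was -0.11 ± 0.62 (SE, adjusted p = 0.911), and the sign was positive without control 2, knockout 2 or knockout 3, with library size alone as the scaling and with a covariate for sex-linked transcripts. Reads from undeleted exons and undeleted cells are counted in this value, so it does not test the labels. Knockout 1 lay between the controls and the other knockouts on the principal component that held 69.4% of the variance. Control 2 stood apart in its sex-linked transcripts, with 52 counts of Xist against 10458 to 23845 in the other 5 libraries. The tubule injury marker Lcn2 was at 142.5, 293.5 and 340.9 CPM in the knockouts and at 3.64 to 6.97 in the controls. Havcr1, a marker of proximal tubule injury, was at 95.02, 74.1 and 9.65 CPM in the knockouts and at 0.249 to 2.53 in the controls, so knockout 1 was the lowest knockout for Lcn2 and the highest for Havcr1. In RNA of a whole kidney, fewer cells of a type and less RNA per cell cannot be told apart, and the cells that carried a keratin transcript were not observed, so the genes are described as keratins of the kidney and not of the tubule alone.

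Of the 10 keratins, 9 passed the filter on low counts and were tested, and 5 of these (Krt7, Krt8, Krt18, Krt19 and Krt20) were higher in the knockouts at an adjusted p under 0.05 in edgeR's quasi-likelihood test, with 0 lower. Over all 15171 genes tested, 10.6% were called higher and 6.64% lower. The median log2 fold change was 2.19 over the 9 tested keratins and 0.02 over all genes tested, and without knockout 2 the median over the keratins was 1.09. The 5 called genes were also those whose 3 knockout libraries all lay above the 3 controls among the genes tested, where 23.8% of all genes did so (46% did not overlap in either direction). All 5 are keratins of simple epithelia. The 4 basal keratins (Krt5, Krt14, Krt15 and Krt17) had their highest level in knockout 2 and at most 6 reads in knockout 3, where Krt5, Krt14 and Krt15 lay below every control and Krt17 did not.

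**Figure D1:**
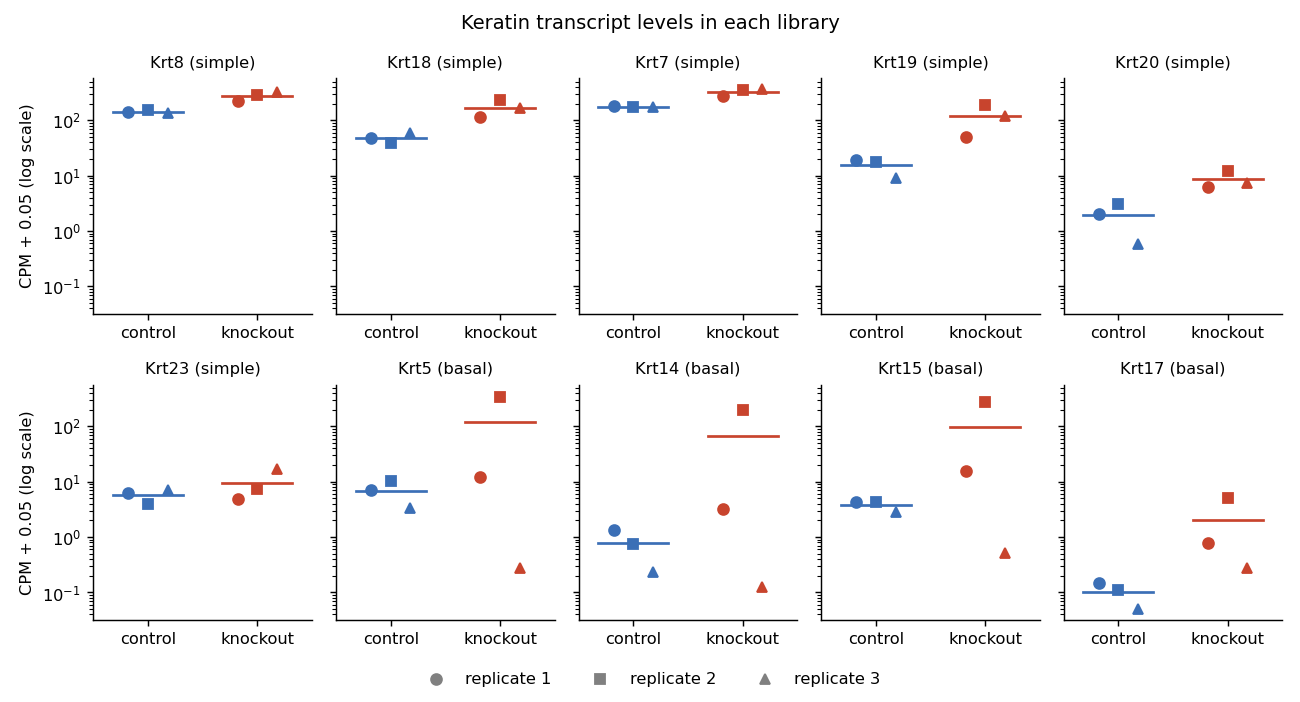
Level of each of the 10 keratins in each library, as CPM plus 0.05 on a log axis, with controls in blue and knockouts in red, a marker shape for each replicate number and a line at the group mean. Krt7, Krt8, Krt18, Krt19 and Krt20 were higher in every knockout than in every control, and Krt5, Krt14 and Krt15 were high in knockout 2 and below all controls in knockout 3.

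The genes lie in the 2 keratin clusters of the mouse genome (build mm9, GENCODE M1). The type II genes are on chromosome 15, with Krt7 at chr15:101241474-101260744 on the plus strand, Krt5 at chr15:101537501-101543322 on the minus strand and Krt8 at chr15:101827142-101834773 on the minus strand. Krt18, at chr15:101858647-101862457 on the plus strand, lies beside Krt8 and is the type I gene outside the type I cluster. The other type I genes are on the minus strand of chromosome 11, with Krt20 at chr11:99289717-99299464, Krt23 at chr11:99339288-99354451, Krt15 at chr11:99993072-99997263, Krt19 at chr11:100002124-100009979, Krt14 at chr11:100064476-100068862 and Krt17 at chr11:100117531-100122343. No annotated gene overlapped any of the 10. Copies elsewhere bear on uniquely mapped reads most for Krt8, since 29.4% of the 100-base words of its transcript also occurred elsewhere in the genome, and reads from such words are not kept as unique. For Krt14 this share was 2.88%, for Krt5 0.430% and for the other 7 it was 0. Krt14 and Krt17 are the most alike in sequence of the 45 pairs, with 82.9% identical bases over their aligned coding sequence, against 59.5% for the partners Krt5 and Krt14 and 56.7% for the partners Krt8 and Krt18.

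RefSeq promoter entries of 4 genes are shown for the patterns that differed most, the simple pair Krt8 and Krt18 and the basal pair Krt5 and Krt14. The entry for Krt14 has its start inside the gene. This was judged from the positions of Krt20 and Krt23 on the same chromosome in both builds. The Krt14 window is therefore not taken as the promoter of Krt14, though it is labelled so below. RefSeq promoters were found for 7 of the 10 genes and not for Krt15, Krt17 and Krt19. Each sequence runs from 250 bases before to 20 bases after the annotated start (build GRCm38.p6, strand of the gene), at chr15:102004323-102004592 for Krt8, chr15:102027966-102028235 for Krt18, chr15:101712886-101713155 for Krt5 and chr11:100206011-100206280 for Krt14. Capitals mark matches on either strand to TGANTCA (bound by AP-1 factors), to GCCNNNGGC (bound by AP-2 factors) or to TATAAA (a core promoter element), which occurred in 7.23%, 14.8% and 12.9% of the 32851 RefSeq promoters of this length.
Krt8 promoter: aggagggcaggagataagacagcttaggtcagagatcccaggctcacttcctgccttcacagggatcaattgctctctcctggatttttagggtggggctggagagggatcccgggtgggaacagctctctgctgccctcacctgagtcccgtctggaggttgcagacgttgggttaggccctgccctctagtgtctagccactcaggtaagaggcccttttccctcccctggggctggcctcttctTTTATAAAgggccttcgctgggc
Krt18 promoter: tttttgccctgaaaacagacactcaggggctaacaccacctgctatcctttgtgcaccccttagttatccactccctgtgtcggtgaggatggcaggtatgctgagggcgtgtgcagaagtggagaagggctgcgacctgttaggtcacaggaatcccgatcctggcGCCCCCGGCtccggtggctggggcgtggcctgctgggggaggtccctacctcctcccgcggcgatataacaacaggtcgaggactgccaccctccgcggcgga
Krt5 promoter: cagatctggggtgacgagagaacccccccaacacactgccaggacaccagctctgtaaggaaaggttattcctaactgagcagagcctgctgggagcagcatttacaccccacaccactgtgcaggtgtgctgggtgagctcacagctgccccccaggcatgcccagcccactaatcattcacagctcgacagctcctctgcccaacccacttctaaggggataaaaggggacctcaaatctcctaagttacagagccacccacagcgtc
Krt14 promoter: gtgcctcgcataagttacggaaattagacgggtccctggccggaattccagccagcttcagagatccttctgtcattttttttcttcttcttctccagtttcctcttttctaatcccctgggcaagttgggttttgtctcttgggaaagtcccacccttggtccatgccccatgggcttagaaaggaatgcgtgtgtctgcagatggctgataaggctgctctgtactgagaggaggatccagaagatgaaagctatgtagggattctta

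In these windows Krt8 had TATAAA on both strands in overlapping matches across the annotated start, and Krt18 had GCCNNNGGC beginning 83 bases before the start. Krt5 held none of these 3 motifs. The Krt14 window also held none, but it lies inside the gene and does not describe the Krt14 promoter. Of the other promoters found, Krt7 had GCCNNNGGC at 146 and 70 bases and Krt20 had TATAAA at 29 bases before the start, and Krt23 had none. TGANTCA was in 0 of the 7 windows, with the Krt14 window inside the gene included. CCAAT, searched in the same way and present in 35.4% of all promoters, was also in 0 of the 7, and CACCC (54.3% of all promoters) was in 6 of them, all but Krt23. A match describes these letters alone.

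Krt8, the type II keratin of simple epithelia, was at 140.9, 151.1 and 137.1 CPM in the controls, in the order of their replicate numbers as in all such lists, and at 225.5, 287.6 and 319.5 CPM in the knockouts. The groups did not overlap, and the lowest knockout was knockout 1. The log2 fold change was 0.96 ± 0.18 (SE, adjusted p = 0.0301), or 1.94-fold between group means. Krt18, the type I partner of Krt8, was at 47.7, 39.3 and 58.8 CPM in the controls and at 112.4, 232.7 and 164.7 CPM in the knockouts. All 3 knockouts were above the controls, with knockout 2 highest, and the log2 fold change was 1.81 ± 0.29 (SE, adjusted p = 0.0277), or 3.50-fold. The reads of Krt8 outnumbered those of Krt18 by 2.96, 3.85 and 2.33 times in the controls and by 2.01, 1.24 and 1.94 times in the knockouts. This ratio was lower in every knockout than in every control and no test was made of it.

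Krt7, a type II keratin of ducts and urothelium, was the most abundant of the 10 in CPM in every library. Its values were 183.6, 177.0 and 170.2 CPM in the controls and 278.7, 348.5 and 365.7 CPM in the knockouts. The controls were close to each other, with an SD of 6.70 CPM, and the knockouts lay above them (log2 fold change 0.90 ± 0.17, SE, adjusted p = 0.0302). Krt19, a type I keratin of ducts that lacks most of the tail domain, was at 19.3, 17.7 and 8.88 CPM in the controls. In the knockouts it was at 50.5, 185.1 and 118.6 CPM. Krt19 had the highest fold change of the 5 called keratins, at 2.95 ± 0.52 (log2, SE, adjusted p = 0.0290), or 7.72-fold between group means.

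Krt20, a type I keratin of gut epithelium and of the umbrella cells of the urothelium, was scarce in every library. It had 40, 52 and 9 counts in the controls (1.99, 3.06 and 0.540 CPM) and 128, 239 and 96 counts in the knockouts (6.28, 12.0 and 7.35 CPM). The groups did not overlap, and the log2 fold change was 2.19 ± 0.60 (SE, adjusted p = 0.0489), just inside the threshold. Krt23, a type I keratin of glandular epithelia, was at 6.32, 3.88 and 7.08 CPM in the controls and at 4.76, 7.33 and 16.7 CPM in the knockouts. Knockout 1 lay within the controls, knockout 2 was barely above them and knockout 3 was highest. The log2 fold change of Krt23 was 0.73 ± 0.50 (SE, adjusted p = 0.314), and without knockout 3 it was 0.07.

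The summed level of the 6 keratins of simple epithelia was 399.8, 391.9 and 382.6 CPM in the controls and 678.0, 1073 and 992.6 CPM in the knockouts. The group means differed 2.34-fold, at 391.5 ± 8.60 CPM in the controls and 914.6 ± 208.8 CPM in the knockouts (SD, n = 3). Knockout 1 was the lowest knockout in the sum and for each of the 6 genes, and the highest was knockout 2 in the sum and for Krt18, Krt19 and Krt20.

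Krt5, the type II keratin of basal cells, was at 7.16, 10.2 and 3.24 CPM in the controls and at 12.3, 346.7 and 0.230 CPM in the knockouts. These were 251, 6909 and 3 counts in knockouts 1 to 3. Knockout 2 was therefore far above, and knockout 3 below, every control. The log2 fold change was 4.13 ± 1.86 (SE, adjusted p = 0.150), and without knockout 2 it was -0.11. With all 6 libraries limma-voom gave 1.27 for Krt5, 3.17 for Krt14 and 2.25 for Krt15.

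Krt14, the type I partner of Krt5, was at 1.29, 0.705 and 0.180 CPM in the controls and at 3.19, 194.3 and 0.0766 CPM in the knockouts, where knockout 3 held 1 count. Its log2 fold change of 6.45 ± 2.27 (SE, adjusted p = 0.0849) was the highest of the tested keratins and its SE was the widest. Without knockout 2 it was 1.19, and without knockout 1 it was 7.003 with an adjusted p of 0.0416. Krt15, a type I keratin of basal cells, was at 4.33, 4.23 and 2.76 CPM in the controls and at 15.5, 274.8 and 0.460 CPM in the knockouts. Its log2 fold change was 4.68 ± 1.76 (SE, adjusted p = 0.0993), and 1.09 without knockout 2. For all 3 genes the order of the knockouts was the same, with knockout 2 highest and knockout 3 below the lowest control.

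Krt17, a type I keratin of basal and activated epithelial cells, had 2, 1 and 0 counts in the controls and 15, 101 and 3 counts in the knockouts. It did not pass the filter on low counts and was not tested with it. With no filter its adjusted p was 0.0496. All 3 knockouts lay above the controls, at 0.736, 5.07 and 0.230 CPM against 0 to 0.0995, with knockout 2 again highest, and the control group as a whole held no more than the floor of 3 counts, so no fold is given.

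**Figure D2:**
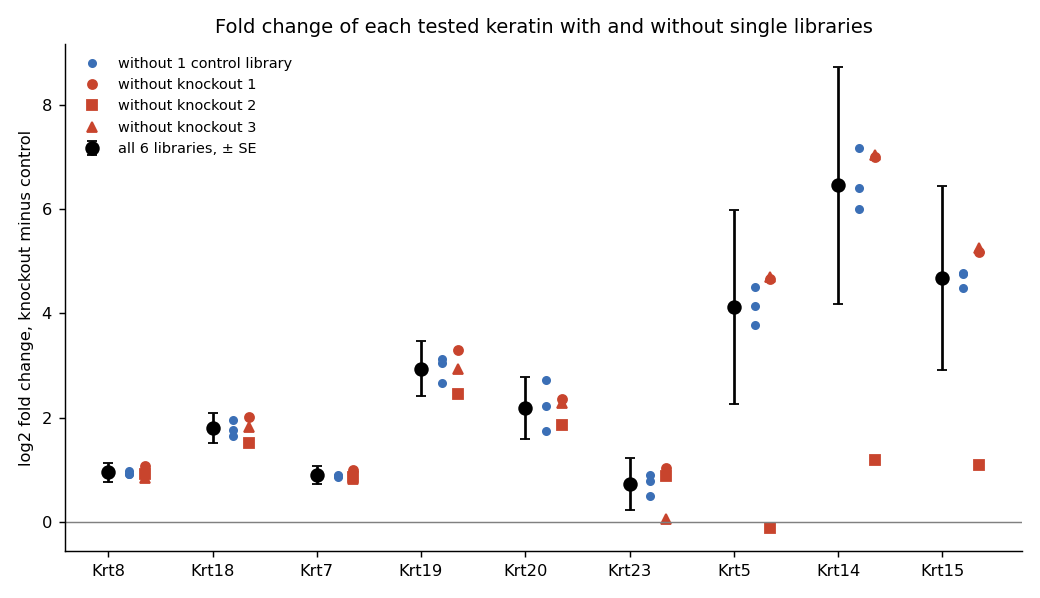
Log2 fold change, knockout minus control, of the 9 tested keratins with all 6 libraries (black, with SE) and with 1 library left out (blue, a control; red, a knockout). Without knockout 2, Krt5 was at -0.11, Krt14 at 1.19 and Krt15 at 1.09, and the 5 called keratins stayed between 0.86 and 2.46.

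The calls of the 5 keratins depended on which library was left out. Without control 1, 2 or 3, 0 keratins were called in edgeR's test, with adjusted p between 0.0805 and 0.119 for the 5 genes, and 6 had an unadjusted p under 0.05 in each of these fits. Without knockout 2, 0 were called, with adjusted p from 0.0566 to 0.125, and 5 had an unadjusted p under 0.05. Without knockout 3, 0 were called (0.0569 to 0.0960 for the 5 genes) and 9 of 10 tested had an unadjusted p under 0.05. Without knockout 1, 6 were called, Krt14 being added. Calls over all genes moved in the same fits, with 0 without any 1 control, 73 without knockout 2, 2 without knockout 3 and 5332 of 15494 without knockout 1. Over all genes, an unadjusted p under 0.05 was found for 4808 of 15518 without control 1, 4270 of 15565 without control 2 and 4823 of 15624 without control 3. The same counts were 4604 of 15408 without knockout 2 and 4456 of 15439 without knockout 3. With all 6 libraries and the covariate for sex-linked transcripts, in which control 2 stood apart, 0 keratins were called (adjusted p 0.111 for each of the 5 genes). In this fit 5 keratins had an unadjusted p under 0.05, as did 4221 of all 15171 genes tested. All 5 genes had a positive log2 fold change in each of these fits.

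The composition of the keratin reads differed between libraries. The 4 basal keratins held 3.12% (Wilson 95% interval 2.77% to 3.52%), 3.72% (3.30% to 4.20%) and 1.59% (1.31% to 1.92%) of the reads of the 10 genes in controls 1 to 3. In knockouts 1 to 3 they held 4.47% (4.14% to 4.82%), 43.3% (42.8% to 43.8%) and 0.100% (0.0586% to 0.171%). These intervals cover counting error only. Knockout 2 was thus the library in which basal keratins approached the simple ones, and knockout 3 had the lowest share. Type II keratins held 80.4%, 83.1% and 79.9% of the reads in the controls and 72.8%, 51.9% and 69.0% in the knockouts, lower in every knockout. The 10 genes together took 0.0395%, 0.0347% and 0.0359% of all counts in the controls and 0.0739%, 0.212% and 0.113% in the knockouts.

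**Figure D3:**
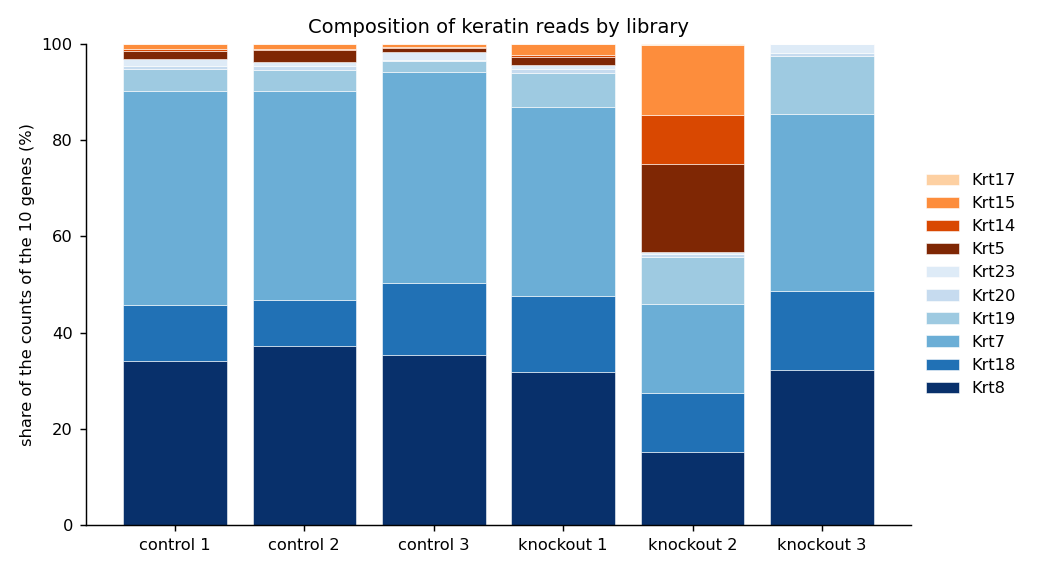
Share of each keratin in the counts of the 10 genes, in percent, as a stacked bar per library, with keratins of simple epithelia in blue and basal keratins in orange. Basal keratins held 43.3% in knockout 2, at most 4.47% in the other 5 libraries and 0.100% in knockout 3.

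Levels between genes were compared per kilobase of exon. In controls the order was Krt8 (79.2 ± 4.01 CPM per kb, SD, n = 3), Krt18 (34.7 ± 6.99), Krt7 (25.1 ± 0.950), Krt19 (8.24 ± 3.02), Krt23 (3.68 ± 1.07), Krt5 (3.13 ± 1.59), Krt15 (2.11 ± 0.491), Krt20 (0.966 ± 0.655), Krt14 (0.413 ± 0.317) and Krt17 (0.0335 ± 0.0317). The libraries of neighbours overlapped from Krt23 down to Krt14, and those of Krt8, Krt18, Krt7 and Krt19 did not overlap with each other. Krt7 took the highest place when levels were divided by coding length (128.8 against 97.1 CPM per kb for Krt8), since its annotated exons span 7049 bases with a coding length of 1374. In the knockouts Krt8 (153.8 ± 26.5 CPM per kb) and Krt18 (121.4 ± 43.1) were again highest by exon length. In knockout 2, Krt5 at 158.3 and Krt15 at 153.7 CPM per kb were at levels close to those of Krt8 (159.3) and Krt18 (166.2).

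Correlations between the keratins across the 6 libraries are given as a description with no test. Among Krt7, Krt8, Krt18, Krt19 and Krt20 the Pearson correlations of log2 CPM lay between 0.76 and 0.99. Krt5, Krt14 and Krt15 correlated with each other at 0.94 to 0.98, and with Krt7, Krt8, Krt18, Krt19 and Krt20 at 0.06 (Krt5 with Krt8) to 0.58 (Krt14 with Krt20). Krt23 correlated with the other 5 keratins of simple epithelia at 0.22 (Krt20) to 0.61 (Krt8), and with these 3 basal keratins at -0.51 to -0.24. Points share libraries and the difference between groups.

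The levels of other cell types were read in the same libraries. The 7 urothelium genes, mostly uroplakins of the umbrella cell membrane, summed to 94.4, 115.1 and 53.9 CPM in the controls and 112.5, 634.3 and 49.3 CPM in the knockouts, so knockout 2 was highest and knockout 3 lowest, as for the basal keratins. Of them 0 of 7 were called by edgeR, and 0 had an unadjusted p under 0.05. Over all 15171 genes tested, these shares were 17.2% called and 5862 genes with an unadjusted p under 0.05. Upk1b, a uroplakin, was at 13.4, 18.2 and 6.48 CPM in the controls and 12.9, 223.8 and 4.67 in the knockouts. Upk3a, another uroplakin, was at 9.80, 13.3 and 6.00 CPM in the controls and 19.6, 70.0 and 0.306 in the knockouts. Trp63, the transcription factor of basal cells, was at 4.28, 5.70 and 2.64 CPM in the controls and 4.71, 44.8 and 2.22 in the knockouts. Of the 7 genes, 5 were lower in knockout 3 than in every control, and Upk3b and Psca, at 13.9 and 26.1 CPM there, lay within the controls. The part of urothelium in the levels of the basal keratins was not tested. Trp63 and the urothelium genes were chosen for mention after their values were seen.

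Markers of epidermis were low, with the 9 genes found summing to 17.0 to 23.9 CPM in the controls and 22.2 to 44.2 in the knockouts, and Krtdap, a marker of differentiating epidermis, was at 0 in all 6 libraries. Of the 6 tested, 0 were called and 3 had an unadjusted p under 0.05. Over all 15171 genes tested, 17.2% were called and 5862 had an unadjusted p under 0.05. Mesothelium genes summed to 151.5 to 291.0 CPM in the controls and 46.7 to 105.3 in the knockouts. Of 3 tested, 1 was called, Gpm6a, lower by a log2 fold change of -1.85 (adjusted p = 0.0486), where 6.64% of all genes were called lower. Gpm6a held most of this sum, at 220.5 CPM on average in the controls. Over the 3 tested genes the median log2 fold change was 1.60, with opposite sign to the sum. Msln (mesothelin, a surface protein of mesothelial cells) was at 5.27, 2.64 and 3.54 CPM in the controls and 2.50, 30.2 and 16.2 in the knockouts (log2 fold change 2.09, adjusted p = 0.103), and was named after its values were seen.

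Among nephron markers, the proximal tubule list held the most calls. The 9 collecting duct principal cell genes summed to 1448 to 1749 CPM in the controls and 1924, 1114 and 631.0 CPM in knockouts 1 to 3. Among them Aqp4, a water channel of principal cells, fell (log2 fold change -2.98, adjusted p = 0.0339) and Gata3, a transcription factor of the collecting duct, rose (0.84, adjusted p = 0.0295). The other 7 were not called, and over all genes 10.6% were called higher and 6.64% lower. The 8 intercalated cell genes summed to 773.0 to 903.7 CPM in the controls and 861.8, 331.7 and 932.3 in the knockouts, with 0 of 8 called and 1 with an unadjusted p under 0.05. The 7 thick ascending limb genes summed to 5492 to 12000 CPM in the controls and 7067, 947.0 and 1264 in the knockouts, with 0 of 7 called and 2 with an unadjusted p under 0.05. Beside these 2 lists, 17.2% of all genes tested were called, and 5862 of 15171 had an unadjusted p under 0.05. All 10 proximal tubule genes had their 3 knockouts below the controls (as 22.2% of all genes did) and 7 fell (6.64% of all genes), among them the uptake receptors Lrp2 (log2 fold change -2.42) and Cubn (-2.30) and the glucose transporter Slc5a2 (-2.38). The summed proximal tubule genes were at 14697 to 20242 CPM in the controls and at 7893, 2937 and 2388 in the knockouts, so knockout 1 was the nearest to the controls here as in the keratins of simple epithelia. Of 5 podocyte genes 1 rose (10.6% of all genes), Synpo, which binds actin in foot processes (1.05, adjusted p = 0.0278). The part of changed cell proportions in the keratin levels was not tested.

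**Figure D4:**
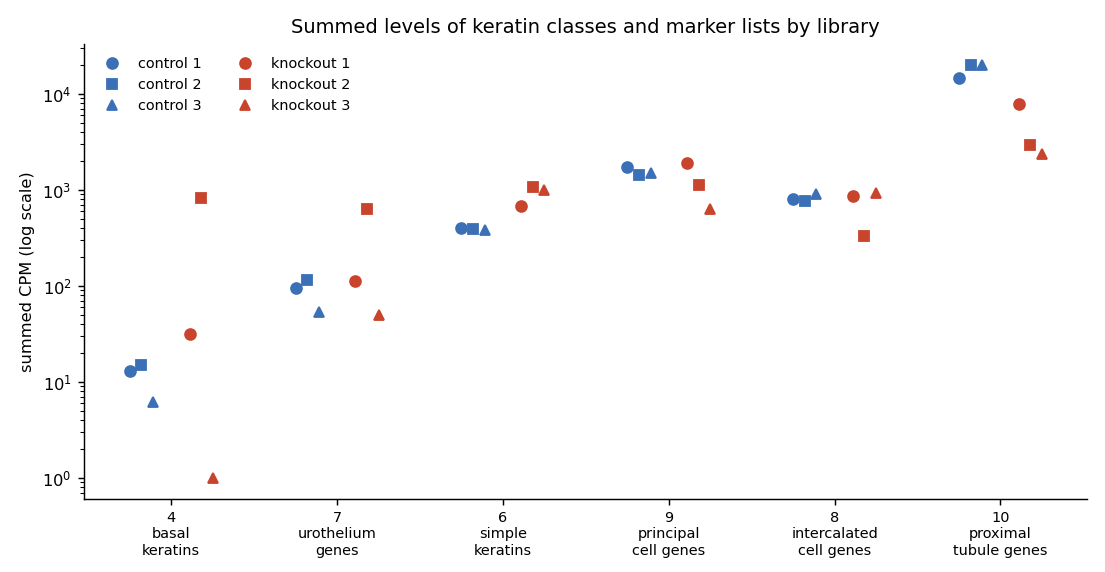
Summed CPM, on a log axis, of the keratin classes and of marker lists in each library, with controls in blue and knockouts in red and a marker shape for each replicate number. Basal keratins and urothelium genes were both highest in knockout 2 and lowest in knockout 3, and the 6 keratins of simple epithelia lay at 382.6 to 399.8 CPM in controls and 678.0 to 1073 CPM in knockouts.

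Of the 42 other keratin genes in the tables, 17 were at 0 in all 6 libraries and 3 passed the filter. None of the 3 was called by edgeR. Krt10, of suprabasal epidermis, had a log2 fold change of -0.74 (adjusted p = 0.109), Krt222 of -1.50 (0.0867) and Krt80 of 0.50 (0.369). An unadjusted p under 0.05 was found for 2 of the 3, and for 5862 of all 15171 genes tested. Krt4, a type II keratin of stratified mucosa, was too low to test and had 5, 3 and 2 counts in the controls and 25, 362 and 0 in the knockouts. These 4 genes were chosen for mention after their values were seen. Krt4 thus had the order of the basal keratins, highest in knockout 2 and at 0 in knockout 3.

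Transcripts of the proteins that anchor keratin filaments were read next. Of 23 anchor genes 19 were tested, 4 rose, 1 fell and 14 were not called, beside 10.6% of all genes higher and 6.64% lower, and their median log2 fold change was 0.37 against 0.02 over all genes tested. Itgb4, the integrin chain of hemidesmosomes, rose from 23.98, 15.4 and 19.6 CPM in the controls to 49.1, 112.9 and 138.1 CPM in the knockouts (log2 fold change 2.35 ± 0.39, SE, adjusted p = 0.0278). Dsc2, a desmosomal cadherin, rose by 1.62 (adjusted p = 0.0380) and Plec, the linker plectin, by 1.34 (0.0329), and Dsg2, another desmosomal cadherin, by 0.92 (0.0326). Dst, the linker dystonin, had a log2 fold change of -0.77 (adjusted p = 0.0378). The remaining 14 were not called, and of these Col17a1, the hemidesmosomal collagen of basal cells, was at 0.348, 0.294 and 0.300 CPM in the controls and 2.50, 87.1 and 0.843 in the knockouts (adjusted p = 0.0565). Its highest library was knockout 2, as for Krt5 and Krt14, and unlike them it lay above the controls in knockout 3.

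Of the 14 other intermediate filament genes 11 were tested, 5 rose and 0 fell, beside 10.6% higher and 6.64% lower over all genes, and the median log2 fold change was 1.03. Vim, the vimentin of mesenchymal and dedifferentiated cells, was at 78.8, 46.8 and 75.2 CPM in the controls and 140.5, 380.0 and 619.4 in the knockouts (log2 fold change 2.51 ± 0.53, SE, adjusted p = 0.0326). Sync (syncoilin) rose by 1.52 and Des (desmin, of muscle cells) by 1.25, with Nes (nestin) at 1.03 and Lmna (lamin A and C) at 0.90, all with adjusted p between 0.0346 and 0.0380. Knockout 1 was the lowest knockout for Vim, Des, Nes and Lmna, and knockout 2 was the lowest for Sync.

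Of 16 epithelial transcription factors 15 were tested, 4 rose and 0 fell, beside 10.6% higher and 6.64% lower over all genes, and the median log2 fold change was 0.77. Sox9, a factor of progenitor and regenerating tubule cells, was at 1.84, 2.12 and 1.08 CPM in the controls and 7.90, 17.2 and 58.7 in the knockouts (log2 fold change 4.04 ± 0.79, SE, adjusted p = 0.0305, and 2.89 without knockout 3). Klf4, a factor of epithelial barrier genes, was at 15.2, 13.2 and 11.9 CPM in the controls and 23.1, 39.4 and 137.0 in the knockouts. It rose by 2.30 (adjusted p = 0.04998), or 1.21 without knockout 3 (0.0653), and Elf3, an epithelial ETS factor, by 1.69 (0.0323). Tfap2a, which binds the AP-2 motif, rose by 0.77 (0.0466). Their highest library was knockout 3 in all 4 cases, unlike the basal keratins. The rest of the list, not called or not tested, was mixed. Trp63, Klf5, Grhl1, Grhl3, Ehf, Zfp750 and Tfap2c were highest in knockout 2, as the basal keratins were. Grhl2, Ovol1 and Ovol2 were highest in knockout 3, and Elf5 and Tfap2b in a control. Dsg2, Dst, Col17a1, Nes, Lmna and Tfap2a were chosen for mention after their values were seen.

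The genes whose levels followed the keratins of simple epithelia most closely over the 6 libraries were Tra2b, Git2, Phf13, Cd2ap and Inf2 (Pearson r of log2 CPM with the mean of the 6 keratins 0.998 to 0.999, from 11331 genes whose log2 CPM averaged 3 or more). Their log2 fold changes were 0.26, 0.74, 1.03, 0.54 and 1.91 in that order. Tra2b (adjusted p = 0.162) and Cd2ap (0.0579) were not called in edgeR's test. For the 3 tested basal keratins the closest genes were Sgpl1, Sprr1a, Tnfrsf19, Alx1 and Upk1a (r 0.980 to 0.998). Sprr1a, a cornified envelope protein, was at 18.2, 21.7 and 9.48 CPM in the controls and 44.2, 234.5 and 4.29 in the knockouts. Upk1a, a uroplakin, was at 12.5, 15.05 and 5.22 CPM in the controls and 13.4, 134.9 and 1.61 in the knockouts. Both were highest in knockout 2 and lowest in knockout 3, which the choice by correlation with the basal keratins favours.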

How the data were processed

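Poly-A RNA of 3 control and 3 TfR1KO;KspCre whole kidneys was sequenced as single-end 100-base reads. According to the study's methods, its authors used CASAVA 1.8.2, Trimmomatic, TopHat 2.0.11 on mm9, uniquely mapped reads and HTSeq; annotation and strand setting are not given in the sources used here. The authors deposited unnormalized counts for each gene. Since uniquely mapped reads were used, genes with copies lose reads. Groups and replicate numbers came from the sample titles.

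Counts were filtered by filterByExpr (minimum count 10, minimum total 15), scaled by TMM and tested over 15171 genes with edgeR 4.0.16 (glmQLFit in its legacy form, glmQLFTest, limma 3.58.1, R 4.3.3), with Benjamini-Hochberg adjustment and a threshold of 0.05. The SE is the log2 fold change divided by the square root of F, and log2 CPM used a prior count of 2. The statistics were tested on simulated data. The study gives 3 mice per model for its RNA sequencing, and the sample labels do not tie libraries to animals, so p-values measure the spread between these libraries. Replicates differed by 52.9 to 125.5 in chi-square per degree of freedom.

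The keratins and lists were chosen with earlier results of these data known. Named genes are the 10 keratins, Tfrc, up to 3 called genes per list with the largest change, markers at 0 in all libraries, and the 5 genes most correlated with each keratin class; exceptions are stated. Alternatives were other scalings (DESeq2 1.42.0 size factors, upper quartile, library size), other filters, DESeq2's Wald test, limma-voom, the newer quasi-likelihood version, leaving out libraries, the replicate block, and a covariate of Xist to Y-linked genes.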

Additional observations from a re-analysis of the deposited data

How the results depend on the processing

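The precision is limited by 3 libraries a group, by 11501053 counts in the shallowest library, and for Krt5, Krt14, Krt15, Krt17 and Krt20 by libraries with under 10 counts. Over 16 alternatives, the 9 tested keratins gave 138 fits, of which 100 kept direction and call, 35 lost the call, 2 gained it and 1 reversed. Other named genes gave 352 fits, of which 191 kept direction and call, 156 lost the call and 5 reversed. The 5 keratin calls held with each scaling, limma-voom and the newer quasi-likelihood version; no filter added Krt17, DESeq2's Wald test added Krt15 (p was NA for Krt5 and Krt14), and a minimum of 10 counts in every library left 4 calls, since Krt20 was not tested, and a median log2 fold change of 0.97 over the 5 keratins it kept.

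Leaving out 1 library gave 0 to 6 keratins, 0 to 5332 of all genes and 0 to 47 list genes called, against 5, 2612 and 25; all 3 were 0 without any control, and without knockout 2 or 3 all genes gave 73 and 2. Same-numbered libraries did not all deviate together (correlations of -0.13, 0.01 and 0.21), so the numbers were not taken to pair them. With the replicate block, 0 keratins, 0 of all genes and 0 list genes were called by edgeR (unadjusted p under 0.05 in 5, 5432 and 51; adjusted p 0.0713 to 0.0742 for the 5 keratins, and log2 fold changes of 1.34 for Krt5, 4.25 for Krt14 and 2.23 for Krt15), and with the sex-linked covariate also 0, 0 and 0 (5, 4221 and 35). The causes were not tested. DESeq2's Wald test called 4882 genes and 39 list genes. With library size alone 81.8% of all calls were higher, against 61.4%, the median of all genes moved to 0.29, and the log2 ratio of the summed simple keratins was 1.504, against 1.22. That of the summed basal keratins was 4.64, and 0.52 to 5.22 with 1 library left out, the lowest without knockout 2. Without 1 library Krt5 ranged from -0.11 (without knockout 2) to 4.71 and Tfrc from -0.96 to 0.29. The reversed values of Tfrc were 0.14 with library size alone, 0.17 without control 2, 0.06 without knockout 2, 0.29 without knockout 3 and 0.15 with the covariate.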

Other observations

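Knockout 2 held 16 genes at 10 CPM or more that were at least 10-fold above every other library, a list set after the data were seen, and Krt5, Krt14 and Krt15 were 3 of them. The same criterion gave 11 genes in control 2, 5 in knockout 3, 1 in control 3 and 0 in control 1 and knockout 1. The others were Col17a1, Upk1b, Sprr2f, Ivl, Grhl3, Pkp1, Jchain, Adh7, Col6a4, Ly6c2, Cers3, Sprr2a3 and Serpinb5. Sprr2f, a cornified envelope protein, was at 0 to 0.411 CPM in the controls and 3.04, 59.0 and 1.76 in knockouts 1 to 3. Ivl (involucrin, a cornified envelope protein) was at 17.8 CPM in knockout 2 and 0.0766 in knockout 3, and Grhl3, an epithelial transcription factor, was at 21.1 and 1.61. Pkp1, a desmosomal plaque protein, was at 26.7 and 0.613. Jchain, the joining chain of secreted antibodies and a gene of plasma cells, was also among the 16, at 313.0 CPM in knockout 2 and 1.69 to 17.0 in the other 5 libraries.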
